A study of Mus musculus with 6 samples.

Results

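The AP-1 family and Atf3 were compared between CD73+ and CD73- AD-MSCs of the mouse. The members are 8 genes, Fos, Fosb, Fosl1, Fosl2, Jun, Junb, Jund and Atf3, of 18193 genes measured in all, and they were taken by name. They were read by the 12 probe sets, groups of short probes that bind a transcript, whose annotation names only 1 of these genes. AD-MSCs are stromal cells of adipose tissue that grow attached to plastic, taken here from the groin fat of adult C57BL/6 mice, for which no transgene or treatment is named, and grown in low sugar DMEM with serum. Both subgroups were separated by a flow cytometer on CD73, the surface enzyme encoded by Nt5e that makes adenosine from AMP, and were cultured to passage 5 before RNA was taken, so that each is a cultured descendant of its sort and not the freshly sorted cells. The data are 3 arrays of CD73+ and 3 arrays of CD73- AD-MSCs, each with a log2 value per probe set. Separate cultures or mice behind the arrays are not named in the labels. The p-values hence measure only how these arrays scatter, and that scatter may be technical.
AP-1 is a dimer of a Fos and a Jun protein, or of 2 Jun proteins, held together by a leucine zipper and bound to DNA through the basic region before it. Fos, Fosb, Jun and Junb are immediate early genes, transcribed within minutes of a growth factor, serum or stress signal through MAP kinases, while Fosl1, which encodes Fra-1, and Fosl2, which encodes Fra-2, usually follow later. Jund is expressed more steadily. Atf3 belongs to the related ATF family, is induced by stress and can pair with Jun proteins. In fibroblasts and stromal cells AP-1 dimers bind promoters and enhancers of genes of the matrix, its proteases and inflammation.

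The sequences before the start sites of 3 members are shown because they hold some of the letters through which signals are known to reach these genes. Fos is the member with the largest rise, Jun a member of the partner family that rose, and Atf3 the member with the largest fall. RefSeq windows (GRCm38.p6) were matched by symbol for 7 of the 8 genes, and the 250 bases before the start of each window were read. Except for Fosb, these lie outside the gene itself. Fos is annotated at chr12:85473890-85477274, Jun at chr4:95049036-95052222 and Atf3 at chr1:191170296-191183333. Capitals mark the CRE core TGACGT (read on the other strand as ACGTCA), the CRE with any base in the middle position TGACNTCA, the CARE element TGATGCAA (on the other strand TTGCATCA) and the TATA box TATAAA.
Fos (chr12:85473640-85473889, plus strand): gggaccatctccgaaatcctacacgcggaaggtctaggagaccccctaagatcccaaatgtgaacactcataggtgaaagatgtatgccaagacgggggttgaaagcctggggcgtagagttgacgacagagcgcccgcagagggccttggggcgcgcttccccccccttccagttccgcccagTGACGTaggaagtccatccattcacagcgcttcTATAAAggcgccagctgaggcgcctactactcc
Jun (chr4:95052223-95052472, minus strand): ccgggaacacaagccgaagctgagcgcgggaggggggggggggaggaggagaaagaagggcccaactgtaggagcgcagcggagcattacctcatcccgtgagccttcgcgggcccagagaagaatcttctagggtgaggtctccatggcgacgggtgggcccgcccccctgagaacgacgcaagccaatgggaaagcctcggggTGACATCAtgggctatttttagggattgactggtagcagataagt
Atf3 (chr1:191183334-191183583, minus strand): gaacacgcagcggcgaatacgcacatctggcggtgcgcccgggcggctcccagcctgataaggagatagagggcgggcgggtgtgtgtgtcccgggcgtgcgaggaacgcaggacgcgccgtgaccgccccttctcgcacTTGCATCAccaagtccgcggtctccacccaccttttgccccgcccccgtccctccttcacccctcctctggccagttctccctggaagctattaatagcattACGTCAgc
Positions are counted back from the annotated start, with -1 the base just before it. The Fos window holds a CRE core at -66 to -61, the kind of element that CREB and ATF proteins bind, and a TATA box at -33 to -28. The Jun window holds TGACATCA at -45 to -38, the site through which AP-1 is known to act on Jun itself. The Atf3 window holds a CARE element at -110 to -103, the kind bound by ATF4 and C/EBP proteins, and a CRE core at -8 to -3. Over 32851 windows of this length, both strands read, TGACGT is found in 6.47%, TGACNTCA in 7.49%, TGATGCAA in 0.791% and TATAAA in 12.4%. TGACGT overlaps TGACNTCA where the middle base is G. No match to these letters, to TGACTCA or to the CArG box was found in the windows of Fosb, Fosl2, Junb and Jund. TGACTCA and the CArG box were not found in the windows of Fos, Jun and Atf3 either. Elements further than 250 bases before the start were not read. The Fosb window (chr7:19310046-19310295, minus strand) overlaps the annotated gene (chr7:19302696-19310118), so the bases before that gene's outer start were read only in part. A match describes the sequence and is no evidence of binding in these cells.

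On the deposited scale Fos was 2.19-fold higher in CD73+ AD-MSCs, and Junb, Fosl2, Jund and Jun were higher by smaller amounts, whereas Atf3 and Fosl1 were lower. Of the 8 genes, each represented by its brightest probe set over the 6 arrays, 5 passed limma's adjusted p threshold of 0.05 as higher and 2 as lower, while Fosb did not pass. Over all genes, 22.8% were called in either direction, 10.1% higher and 12.6% lower, and 35.0% of the genes whose probe set was at or above the median level were called. Of the 12 probe sets 6 were higher and 3 were lower, against 9.79% higher and 9.11% lower among 45037 probe sets, 18.9% in all. The median log2 difference (CD73+ minus CD73-) of the 8 genes was 0.30, beside -0.018 over all genes. Values of CD73+ and CD73- arrays did not overlap for 9 of the 12 probe sets, beside 34.9% of all probe sets, and for 7 of the 8 genes, beside 40.8% of all genes.
Directions hold relative to the deposited scale, in which RMA makes the arrays nearly alike. The 24 poly-A control probe sets, bacterial transcripts normally added to the RNA before labelling, averaged 7.83 ± 0.066 in CD73+ and 8.78 ± 0.040 in CD73- arrays (log2, SD, n = 3 each). Scaling each array to these controls adds 0.95 to the median difference of all probe sets. Every member then lay above 0, from 0.10 for Atf3 to 2.09 for Fos. Set against that median, Atf3 was at -0.85 and Fos at 1.13, as on the deposited scale. This match follows from the arithmetic, because the scaling moves all probe sets of an array by the same amount, and is no second check. For beta-actin, the log2 ratio of 3′ over 5′ probe set signal, which reflects RNA integrity and labelling, was 0.084 ± 0.014 in CD73+ and 0.19 ± 0.028 in CD73- arrays (SD, n = 3 each), and its part in these results was not tested. The same ratio of Gapdh was -0.27 ± 0.035 in CD73+ and -0.30 ± 0.023 in CD73- arrays (SD, n = 3 each).

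Among the Fos genes, Fos and Fosl2 were higher in CD73+ AD-MSCs and Fosl1 was lower on the deposited scale. Fos, the prototype early gene, had log2 values of 10.54, 10.58 and 10.63 on the CD73+ arrays and 9.46, 9.49 and 9.40 on the CD73- arrays. The lowest CD73+ array lay 1.05 above the highest CD73- array, against SDs of 0.042 in CD73+ and 0.044 in CD73- arrays. The difference was 1.13 (SE 0.057, limma adjusted p = 0.000109), and 53 of the 18193 genes rose by more.
Fosl1, which encodes Fra-1, had log2 values of 10.27, 10.39 and 10.45 on the CD73+ arrays and 10.90, 10.82 and 10.78 on the CD73- arrays. All CD73+ arrays were below all CD73- arrays, by at least 0.33. On the deposited scale it fell by 0.46 (SE 0.068, limma adjusted p = 0.00364), and its second probe set fell by 0.34, with values of 8.64, 8.72 and 8.59 in CD73+ and 9.02, 8.99 and 8.95 in CD73- arrays (adjusted p = 0.00731 from limma). Under poly-A scaling both lie above 0, at 0.49 and 0.62.
Fosl2, which encodes Fra-2, was read differently by its probe sets. The brighter one had 9.229, 9.351 and 9.284 on the CD73+ arrays and 9.004, 8.954 and 8.772 on the CD73- arrays, and rose by 0.38 (SE 0.077, limma adjusted p = 0.0133). Its subgroups did not overlap, but the adjusted p was 0.0536 from limma without CD73+ replicate 2, and ran from 0.000235 to 0.0543 over the alternatives other than poly-A scaling. The dimmer one had 6.18, 5.93 and 5.95 in CD73+ and 6.25, 6.03 and 6.19 in CD73- arrays, which overlap, with a difference of -0.14 (95% interval -0.35 to 0.073, adjusted p = 0.37 from limma).
Fosb, an early gene whose product resembles Fos, lay near the low end of the arrays, above only 24.3% of probe sets in mean brightness. It had 3.89, 3.88 and 3.94 on the CD73+ arrays and 3.77, 3.94 and 3.52 on the CD73- arrays. The subgroups overlapped, and the difference of 0.16 (95% interval -0.078 to 0.40, adjusted p = 0.357 from limma) did not pass. A signal this low limits what the probe set can show about Fosb.

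**Figure D1:**
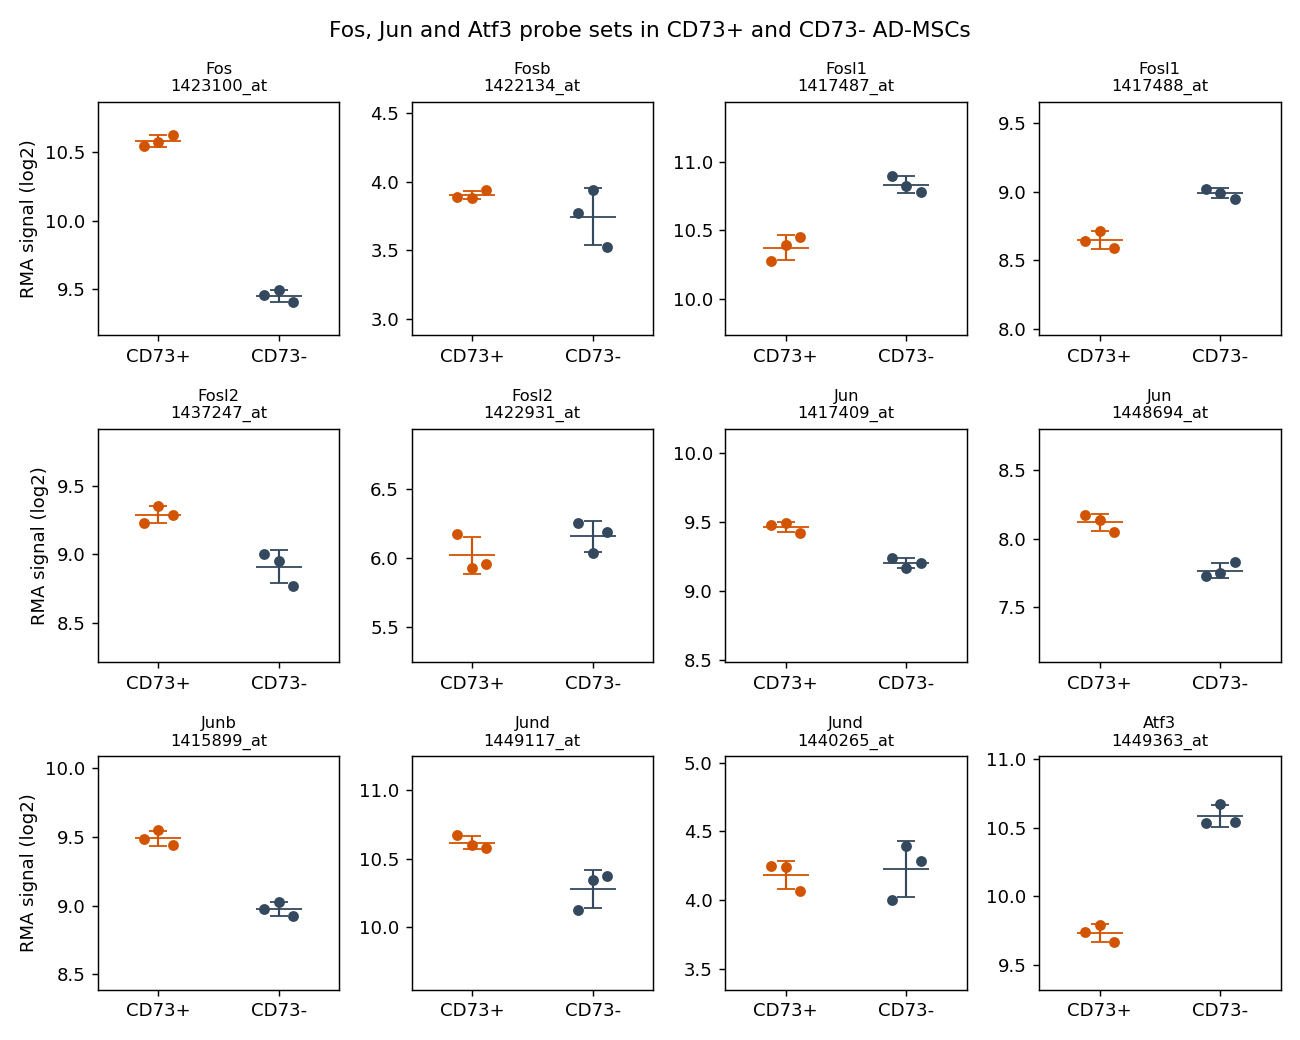
RMA signal (log2, vertical axis) of the 12 probe sets of the 8 members on each array, CD73+ at left and CD73- at right of each panel, with the mean (wide bar) and SD (capped line) of 3 arrays; every panel spans the same range of log2 units. Fos (10.54 to 10.63 in CD73+, 9.40 to 9.49 in CD73-) and Atf3 (9.67 to 9.79 in CD73+, 10.53 to 10.67 in CD73-) separate most, in opposite directions on the deposited scale, while Fosb, the dimmer Fosl2 and the dimmer Jund probe set overlap.

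All 3 Jun genes rose on their brightest probe sets, and by less than Fos. Junb, an early gene whose product dimerises with Fos and can restrain Jun, had 9.49, 9.55 and 9.44 on the CD73+ arrays and 8.98, 9.03 and 8.93 on the CD73- arrays. Its subgroups were 0.41 apart at their closest, and the difference was 0.51 (SE 0.060, limma adjusted p = 0.00134).
Jun, the partner of Fos in the classical dimer, had 9.48, 9.49 and 9.42 in CD73+ and 9.24, 9.16 and 9.20 in CD73- arrays on its brighter probe set. There it rose by 0.26 (SE 0.056, limma adjusted p = 0.0164). That call ended when CD73+ replicate 1 (0.0698), CD73+ replicate 2 (0.0681) or CD73- replicate 2 (0.0672) was left out, in limma's adjusted p, over a range of 0.00032 to 0.0698 for the alternatives other than poly-A scaling. The second probe set, with 8.17, 8.13 and 8.05 in CD73+ and 7.72, 7.75 and 7.83 in CD73- arrays, rose by 0.35 (SE 0.062, limma adjusted p = 0.00701) and stayed below an adjusted p of 0.05 in all of those alternatives. The subgroups did not overlap on either Jun probe set.
Jund, whose product slows growth in many cells, had 10.67, 10.60 and 10.58 on the CD73+ arrays and 10.12, 10.34 and 10.38 on the CD73- arrays. CD73- replicate 1 was the lowest of the 6 arrays. The difference was 0.34 (SE 0.080, limma adjusted p = 0.0244), a call that ended when CD73+ replicate 1 (0.0912), CD73+ replicate 2 (0.0689) or CD73- replicate 2 (0.0523) was left out, in limma's adjusted p, over a range of 0.000422 to 0.0912 for the alternatives other than poly-A scaling. A dim second probe set had 4.249, 4.238 and 4.065 in CD73+ and 3.999, 4.395 and 4.285 in CD73- arrays, with a difference of -0.043 (95% interval -0.30 to 0.21, adjusted p = 0.853 from limma).
The count of higher genes therefore rests in part on single arrays. It was 3 without CD73+ replicate 1, 2 without CD73+ replicate 2 and 3 without CD73- replicate 2, while Fos and Junb passed in each of these. The 95% intervals of Junb (0.37 to 0.65), Fosl2 (0.20 to 0.56), Jund (0.15 to 0.52) and Jun (0.13 to 0.39) overlap on their brightest probe sets, and that of Fos (0.998 to 1.26) lies above all of them. Differences between genes were not tested.

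Atf3 had the largest fall of the members on the deposited scale. Its log2 values were 9.74, 9.79 and 9.67 on the CD73+ arrays and 10.53, 10.67 and 10.54 on the CD73- arrays. The highest CD73+ array was 0.74 below the lowest CD73- array, and CD73+ AD-MSCs had 0.555 times the CD73- level. The difference was -0.85 (SE 0.067, limma adjusted p = 0.000335), and 76 of the 18193 genes fell by more. Its 95% interval (-1.01 to -0.69) lies below that of the brighter Fosl1 probe set (-0.62 to -0.30). After scaling to the poly-A controls Atf3 was at 0.10 (adjusted p = 0.213 from limma).

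**Figure D2:**
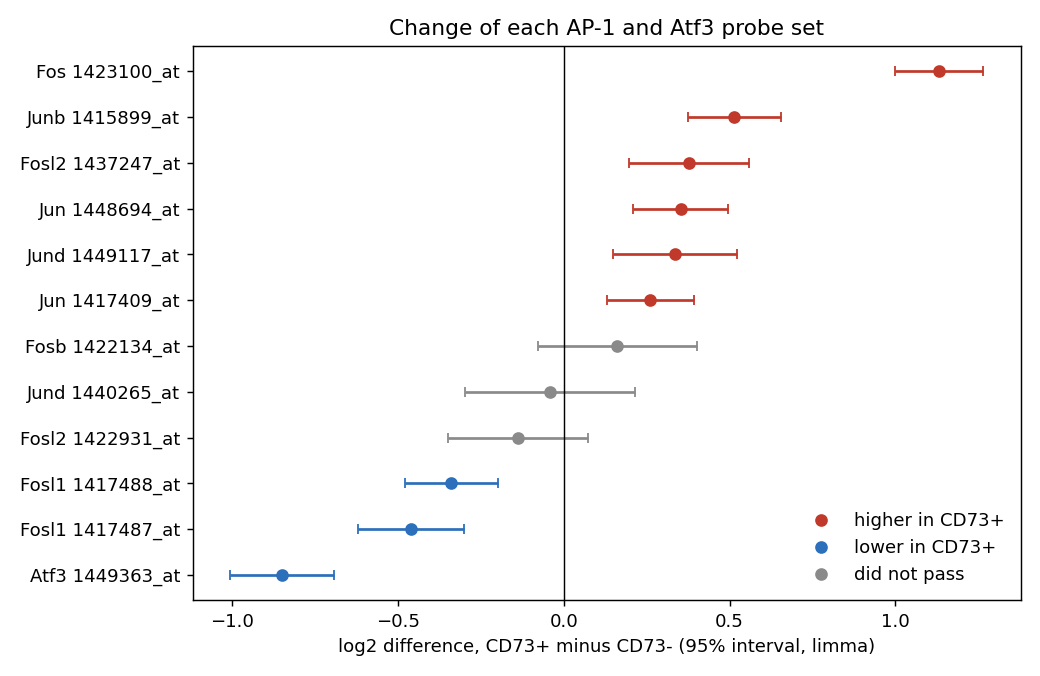
Log2 difference, CD73+ minus CD73- AD-MSCs (horizontal axis), of each of the 12 probe sets with its 95% interval from limma, 3 arrays per subgroup. On the deposited scale 6 probe sets are higher (red), from 0.26 to 1.13, 3 are lower (blue), from -0.85 to -0.34, and 3 did not pass (grey); those below 0 lie above it under poly-A scaling.

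Genes that follow the same early signals were partly higher with Fos. Outside the family 16 early response genes were measured, of which 7 passed as higher and 2 as lower, with a median difference of 0.13, beside -0.018 over all genes. The called share was 56.2%, beside 35.0% of genes at or above the median level. Egr3, a zinc finger factor of the early response, rose by 1.28 (SE 0.12, limma adjusted p = 0.000565), although its other probe set did not pass. Nr4a1, an orphan nuclear receptor induced by serum, rose by 0.81 (SE 0.055, limma adjusted p = 0.000217). Egr1, induced with Fos through the same serum response elements, had 0.20 (adjusted p = 0.0415 from limma), a call that held only without CD73- replicate 3 when arrays were left out 1 at a time (0.057 to 0.14 without any of the others, over a range of 0.000226 to 0.14 for the alternatives other than poly-A scaling), and Ier2 had 0.12 (adjusted p = 0.221 from limma). Myc and the matrix protein gene Ccn2 fell by 0.50 and 0.27 on the deposited scale, and both are above 0 after poly-A scaling. The Ccn2 call ended without CD73+ replicate 1 (adjusted p = 0.0533 from limma, over a range of 3.82e-06 to 0.0545 for the alternatives other than poly-A scaling).
Of 20 measured kinases and factors upstream of AP-1, 4 were higher, 1 was lower and 15 did not pass, with a median of 0.049. That is 25% called, near the 22.8% of all genes and below the 35.0% of genes at or above the median level, so the count sets this list apart in no way. Elk3, an ETS partner of SRF, rose by 0.57 and Mapk8, which encodes the Jun kinase JNK1, rose by 0.37. Of the other probe sets, 2 of 3 for Elk3 and 1 of 4 for Mapk8 were higher. Mapk9, which encodes JNK2, fell by 0.25 on the deposited scale, a call that held only without CD73- replicate 3 when arrays were left out 1 at a time (adjusted p from limma 0.0501 to 0.0752 without any of the others) and that turns after poly-A scaling. None of the 2 other Mapk9 probe sets passed. Srf, the serum response factor itself, had 0.090 (adjusted p = 0.376 from limma).
Of 8 turnover factors 2 were higher and 1 was lower, a share of 37.5% that is near the 35.0% of genes at or above the median level. Zfp36, which encodes tristetraprolin, a protein that speeds the decay of early gene mRNAs and is itself an early gene, rose by 0.95 (SE 0.059, limma adjusted p = 0.000163). Its relative Zfp36l1 rose by 0.29, and without CD73+ replicate 2 its adjusted p was 0.051 from limma, over a range of 0.000252 to 0.051 for the alternatives other than poly-A scaling. Cop1, part of a ubiquitin ligase for Jun, fell by 0.33 on the deposited scale and not after poly-A scaling, and its adjusted p from limma ran from 7.22e-05 to 0.0512 over the other alternatives, the highest with the replicate number as a block.

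Genes next to Atf3 in the stress response were mostly lower with it on the deposited scale. Of 10 stress genes 7 were lower and 2 were higher, with a median of -0.36. The called share was 90%, beside 22.8% of all genes and 35.0% of those at or above the median level. Like the other lists, this one was chosen with earlier results of these data known, so the share is a description and not an independent result. Over all genes 12.6% were called lower. Gadd45a, a stress-induced growth arrest gene, fell by 0.75 (SE 0.066, limma adjusted p = 0.000487), and Ppp1r15a, which encodes the phosphatase subunit GADD34, fell by 0.75 (SE 0.056, limma adjusted p = 0.000286). Both are above 0, at 0.20, after poly-A scaling. The genes that rose were Hspa1b and Hspa1a, heat shock proteins rather than genes of the ATF4 pathway, by 0.97 and 0.93. They are near-identical copies whose probe sets may read each other, so the value of either is uncertain.
Of 18 measured genes whose proteins share the bZIP fold and can pair with AP-1 or ATF members, 7 were lower and 0 were higher on the deposited scale. Their median was -0.15. The share called, 38.9%, is near the 35.0% of genes at or above the median level called in either direction. All calls in this list were lower. Of all genes, whatever their level, 12.6% were called lower, and the share called lower among genes at or above the median level was not computed. Maf, a bZIP factor of the Maf family, fell by 0.79 (SE 0.095, limma adjusted p = 0.00156), while none of its 5 other probe sets passed. Ddit3, which encodes CHOP, fell by 0.77 (SE 0.062, limma adjusted p = 0.00036), a fall that its second probe set did not show past the threshold. Jdp2, a repressor that pairs with Jun, fell by 0.43 and Atf4, which acts on Atf3, fell by 0.33. Atf2, a partner of Jun, had 0.24 (adjusted p = 0.0502 from limma), while 2 of its 4 other probe sets were higher and 1 was lower. Its adjusted p from limma ran from 0.00385 to 0.153 over the alternatives other than poly-A scaling. It passed as higher under quantile normalization, cyclic loess, the filter at the median level, the trended prior and array weights, so that the count of 0 higher genes depends on the setting. After poly-A scaling 16 of these genes were higher and 0 were lower.

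**Figure D3:**
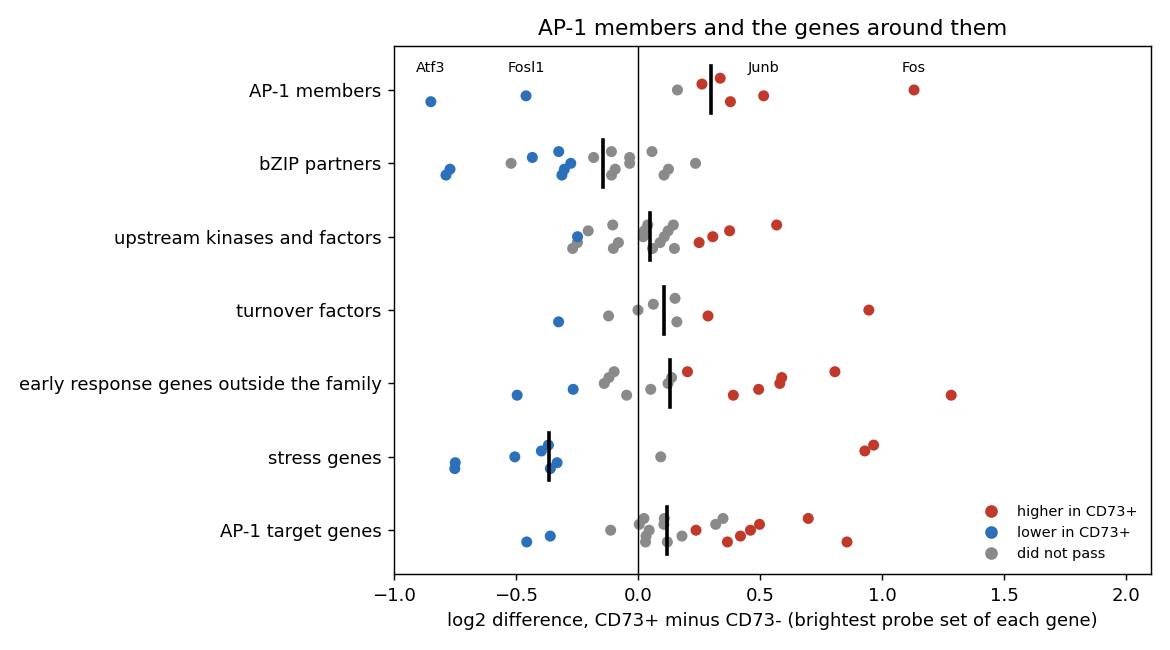
Log2 difference, CD73+ minus CD73- AD-MSCs (horizontal axis), of each measured gene of 7 lists, with 1 point for each gene, read by its brightest probe set, and a black bar at the list's median. Points in red are called higher and points in blue lower by limma on the deposited scale, and those in grey did not pass; the median is 0.30 for the AP-1 members, -0.15 for bZIP partners and -0.36 for stress genes, and blue points move above 0 after scaling to the poly-A controls.

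Genes often named as AP-1 targets did not move as a block. Of 21 measured, 7 were higher, 2 were lower and 12 did not pass, with a median of 0.12. The called share was 42.9%, beside 22.8% of all genes and 35.0% of genes at or above the median level. Of the 21 genes, 7 lay below that level. Ccl2, a monocyte chemokine, rose by 0.86 (SE 0.052, limma adjusted p = 0.000156) and Timp1, an inhibitor of matrix metalloproteases, by 0.70 (SE 0.061, limma adjusted p = 0.000483). The cytokine gene Il6 rose by 0.50 and the G1 cyclin gene Ccnd1 by 0.42, and 2 further probe sets of Ccnd1 were higher as well. Sphk1, which makes sphingosine phosphate, and Lif, a cytokine of the IL-6 family, fell by 0.46 and 0.36 on the deposited scale and are above 0 after poly-A scaling, and the other Sphk1 probe set did not pass. The proteases Mmp3, Mmp9, Mmp10, Mmp12 and Mmp13, classical AP-1 targets, had dim probe sets and differences between 0.0044 and 0.35 that did not pass.
The classical AP-1 site, the TRE with the letters TGACTCA, read on both strands, was found in the 250 bases before the start of 10 of the 17 target genes that have such a window, and in 4.46% of all windows. The list was drawn in part from genes known for such sites, so this share is a check of the list and not a finding. Of the 10, 1 was higher and 2 were lower, with a median of 0.039. Among these 10, Il11, Mmp3, Mmp10, Mmp12 and Mmp13 had probe sets below the median level. These were brighter than only 4.8% (Mmp12) to 43% (Il11) of probe sets, which limits what their differences can show. Of the 4 measured target genes whose windows hold no TRE, 3 were higher, with a median of 0.30. Genes with and without a TRE were not tested against each other. The sites of the 3 genes with a TRE that passed are shown with their flanks, the TRE in capitals.
Il6 (chr5:30012864-30012881, plus strand): cTGAGTCActtttaaaga
Lif (chr11:4257330-4257356, plus strand): cagtcagctgTGACTCAggccatagtg
Sphk1 (chr11:116531777-116531803, plus strand): agcgtgtcgcTGAGTCAccttctcgga
The Il6 site begins at -249, that of Lif at -228 and that of Sphk1 at -50. These 3 genes carry the same letters and did not move in 1 direction on the deposited scale.

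The genes most like Fos over the 6 arrays were Fgf7, a growth factor, Hmmr, a hyaluronan receptor, and Slc6a6, a taurine transporter, with Pearson r of 0.9997, 0.9996 and 0.9996. Those most like Atf3 were Sdhb, a subunit of succinate dehydrogenase, Aatf and Fam107b, with r of 0.9999, 0.9996 and 0.9991. The 6 points of each correlation fall into the 2 subgroups, and r was over 0.99 with 356 genes for Fos and with 209 for Atf3, of 16436 compared. The measure takes no account of size, and Sdhb differed by only -0.045.
Nt5e, the gene of the sorting marker, was higher in CD73+ AD-MSCs by 0.88 on the brightest of its probe sets (limma adjusted p = 0.0218), while 2 further ones did not pass. It averaged 7.73 ± 0.12 in CD73+ and 6.84 ± 0.45 in CD73- arrays (log2, SD, n = 3 each), so that the CD73- arrays scattered more and also lay above the array medians on average. Most stromal markers were higher as well. Of 8 measured 5 were higher, 0 were lower and 3 did not pass. Over all genes 10.1% were higher, and 35.0% of genes at or above the median level were called in either direction. The mean log2 signal of the stromal markers ran from 10.31 to 10.33 in CD73+ and from 9.86 to 9.91 in CD73- arrays. Their part in the AP-1 results was not tested. Below the median level of the arrays were 5 of 8 leukocyte, 6 of 7 endothelial, 4 of 5 adipocyte and 1 of 3 Schwann cell markers. On the brightest probe set of each gene, 0 of 8 leukocyte, 0 of 7 endothelial, 0 of 5 adipocyte and 0 of 3 Schwann cell markers passed. Among the adipocyte markers, 2 of the 3 other Fabp4 probe sets were higher and the 1 other Lpl probe set was lower. The leukocyte markers averaged 4.53 to 4.58 in CD73+ and 4.42 to 4.51 in CD73- arrays, with Ptprc at 3.06 in CD73+ and 3.19 in CD73- arrays, below the array medians of 5.28 to 5.37. The endothelial markers averaged 4.22 to 4.27 in CD73+ and 4.13 to 4.28 in CD73- arrays, the adipocyte markers 4.85 to 4.89 in CD73+ and 4.90 to 4.93 in CD73- arrays, and the Schwann cell markers 5.28 to 5.53 in CD73+ and 5.35 to 5.54 in CD73- arrays. In such bulk RNA, a change in the number of cells that express a gene and in the RNA per cell cannot be told apart.

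**Figure D4:**
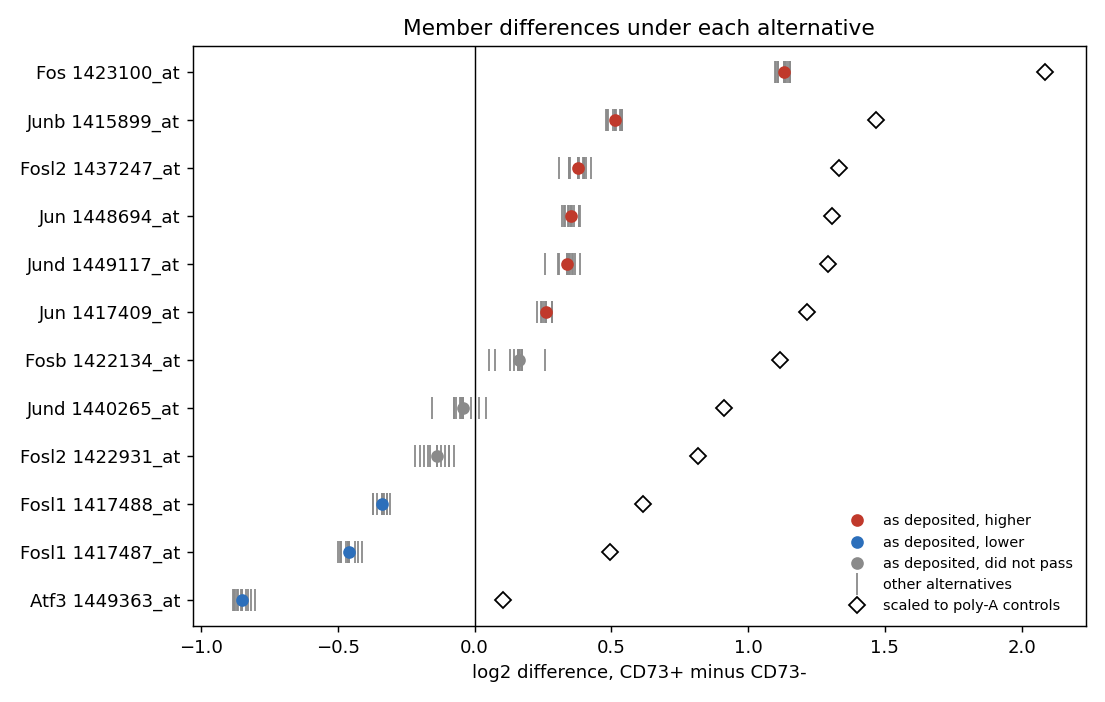
Log2 difference, CD73+ minus CD73- AD-MSCs (horizontal axis), of the 12 probe sets on the deposited scale (filled points), under the other alternatives and with each array left out (grey ticks), and after scaling to the poly-A controls (open diamonds). Fos stays between 1.10 and 1.15 and Atf3 between -0.88 and -0.80 except after poly-A scaling, which puts them at 2.09 and 0.10.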

How the data were processed

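RNA of CD73+ and CD73- AD-MSCs was read on Affymetrix mouse expression arrays, 3 per subgroup. The authors deposited log2 values of each probe set, made with RMA according to the submitters' processing notes, its version being not given in the sources used here. RMA subtracts background, equalises the arrays and summarises probes, which removes shifts shared by most transcripts and compresses small ratios. Scanner files were not used here, and no batch or scan date is given in the sources used here.
After 64 control probe sets had been removed, 45037 entered 1 limma 3.58.1 fit (R 4.3.3, eBayes, no filter, no replicate block). Tests were two-sided and Benjamini-Hochberg adjusted over the whole table, and 0.05 was the threshold. The study's methods name no test for single probe sets, and the methods' t-test below stands for their general statistics with equal variances. A single gene symbol is given for 34945 probe sets and several for 932, and 9160 have no name here. By Entrez ID, 34754 of the first kind were found in RefSeq, and 0 symbols changed. In simulated data 200 of the 45037 probe sets were given a change. There limma called 41% of those given a log2 change of 0.5 and 85% of those given 1. False calls among the unchanged probe sets numbered 5. In the real data 8513 probe sets were called, so these shares describe the simulated setting only. Precision is limited by the number of arrays. Within subgroups the SD had a median of 0.10. Arrays of a subgroup correlated with r of 0.997 to 0.998 across probe sets, and arrays of different subgroups with 0.993.
The members and gene lists were chosen with earlier results of these data known. Named are all member probe sets, up to 2 genes with the largest rise and 2 with the largest fall of each list among those that passed, and the 3 genes most correlated with the members of largest rise and fall. Egr1, Ier2, Srf, Jdp2, Atf4, Atf2, Il6, Ccnd1 and the Mmp genes were added for their roles or sites after their values were seen, and the motifs were chosen after the windows had been seen. Alternatives were a replicate block, other scalings, a filter at the median level, other priors, array weights, the methods' t-test, averaging a gene's probe sets and leaving out each array. Python 3.11.15 with matplotlib 3.10.9 made the figures.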

Additional observations from a re-analysis of the deposited data

How the results depend on the processing

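Fos, Junb, both Fosl1 probe sets, the second Jun probe set and Atf3 kept their direction and call under all 15 alternatives other than scaling to the poly-A controls, and the probe sets of Fosb, Fosl2 (the dimmer) and Jund (the dimmer) did not pass in any of them that gave a value (the filter leaves out Fosb and the dimmer Jund probe set). Poly-A scaling took the higher member probe sets to 11 and the lower ones to 0, the lower member genes to 0, and all called probe sets to 44787, of which 44758 were higher. It put Fosl1 at 0.49 and 0.62, the dimmer Fosl2 and Jund probe sets at 0.82 and 0.91, Atf3 at 0.10, Ddit3 at 0.18, Maf at 0.17, Mapk9 at 0.71, Cop1 at 0.63, Myc at 0.46, Ccn2 at 0.69, Gadd45a and Ppp1r15a at 0.20 each, Lif at 0.59 and Sphk1 at 0.50, Jdp2 at 0.52 and Atf4 at 0.63, and Fosb passed at 1.12. The called genes then numbered 16 bZIP partners, 20 upstream, 8 turnover, 16 early response and 21 target genes, and 8 stromal, 8 leukocyte, 7 endothelial, 5 adipocyte and 3 Schwann cell markers, since nearly every probe set is raised. With the replicate number as a block the higher member genes were 3 (Jun at an adjusted p of 0.0618 and Jund at 0.0704 from limma no longer passed) and the called upstream genes 2, Mapk9, Cop1, Ccn2 and Egr1 no longer passed (0.0617, 0.0512, 0.0545 and 0.124), no other call of a named member or list gene changed, and all called probe sets went to 3080 higher and 2713 lower. The labels do not say whether same-numbered arrays share more than a number. The correlations of their deviations from the subgroup means were -0.14, 0.028 and -0.14, and 2 of 6 arrays correlated best with their own number. With 3 arrays in each subgroup, such deviations are tied to each other and cannot decide whether the arrays were paired. The methods' t-test gave 3 higher member genes, with Fosl2 at an adjusted p of 0.0543 and Jund at 0.0821. At its unadjusted threshold it called 6 member probe sets higher and 3 lower (6426 and 6188 over all), and after Benjamini-Hochberg 4 and 3 (3494 and 3370). Median centring left Jun at an adjusted p of 0.0513 and Egr1 at 0.113 from limma. Averaging a gene's probe sets gave 3 higher member genes, 1 leukocyte and 2 adipocyte calls, and array weights 1 leukocyte and 1 Schwann cell call. The filter and the trended prior each called 9 upstream genes, where 5 were called as deposited. Leaving out 1 array gave 3 to 6 higher member probe sets, 2 to 5 higher and 2 lower member genes, 3 to 6 upstream genes, 0 to 1 Schwann cell markers and 5319 to 7880 probe sets in all, the fewest without CD73+ replicate 1. The causes of these changes were not tested.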
